A study of Canis lupus familiaris and Eptesicus fuscus and Equus caballus with 6 samples.

Results

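Structural noncoding RNAs of the cell were examined in 2 testis RNA libraries, 1 from dog and 1 from horse. The set comprised 9 RNA models: the small- and large-subunit ribosomal RNAs (SSU-rRNA_Hsa and LSU-rRNA_Hsa), 5S rRNA, the spliceosomal RNAs U1, U2 and U6, the nucleolar RNA U3, 7SK and 7SLRNA. They were chosen by name, and all 9 were found among the 955 models of the dog file and the 986 models of the horse file, which otherwise held mainly repeat families. The series covered small RNA and mRNA from the testes of dog, horse and a bat, taxa that its title sets apart by their transposable element activity. Both libraries used here came from snap-frozen adult testis, with total RNA extracted by TRIzol, and were labelled as mRNA. No breed, treatment or number of animals is given, and how mRNA was selected is not given in the sources used here. The files hold no protein-coding gene by which the tissue could be checked, and none of the 511 models of the bat mRNA file carries the name of a member.

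Ribosomal RNA makes up most of the RNA of a cell: the small- and large-subunit RNAs are cut from 1 precursor made by RNA polymerase I, whereas 5S rRNA, a component of the large subunit, is made separately by RNA polymerase III. U1, U2, U4, U5 and U6 are the RNA cores of the spliceosome, and U3 guides the cleavage of the rRNA precursor. 7SK holds the elongation factor P-TEFb in an inactive complex, and 7SLRNA is the scaffold of the signal recognition particle, which brings secreted proteins to the endoplasmic reticulum. Most of these RNAs lack a poly(A) tail.

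Levels are given as TPM, transcript abundance scaled so that both files have equal sums, a scale that corrects for model length, followed by the interval deposited with each value. Reads were rebuilt from TPM and model length and show the depth behind each value. They came to 679507 in dog and 664661 in horse over all models, of which 103620 and 174376 lay on transposable element models. Since there was 1 library per species, the spread between animals is unknown for every difference given here. The intervals cover errors of counting and of assigning reads, and those computed from reads cover counting error only. Reads without molecular identifiers are not independent molecules. In bulk tissue, fewer cells of a type and less RNA per cell cannot be told apart. Because the libraries were labelled as mRNA and the selection is not given, levels and ratios of these RNAs need not equal those in the cell.

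The 9 RNAs spanned more than 3 orders of magnitude in both libraries, in nearly the same order. The 2 large rRNAs stood first, U6 came next, and the other 6 were at or below the level of 7SLRNA. Together the 9 RNAs held 52.9% of TPM in dog and 49.1% in horse. As shares of rebuilt reads, which weigh long models more, they held 84.6% in dog (exact binomial 95% interval 84.5 to 84.7%) and 72.2% in horse (72.1 to 72.3%). Nearly all of this was rRNA. The 7 shorter RNAs held 1.75% of TPM in dog and 1.41% in horse, and only 916 and 663 reads, so that the values of U1, U2, U3 and 5S rest on few reads.

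**Figure D1:**
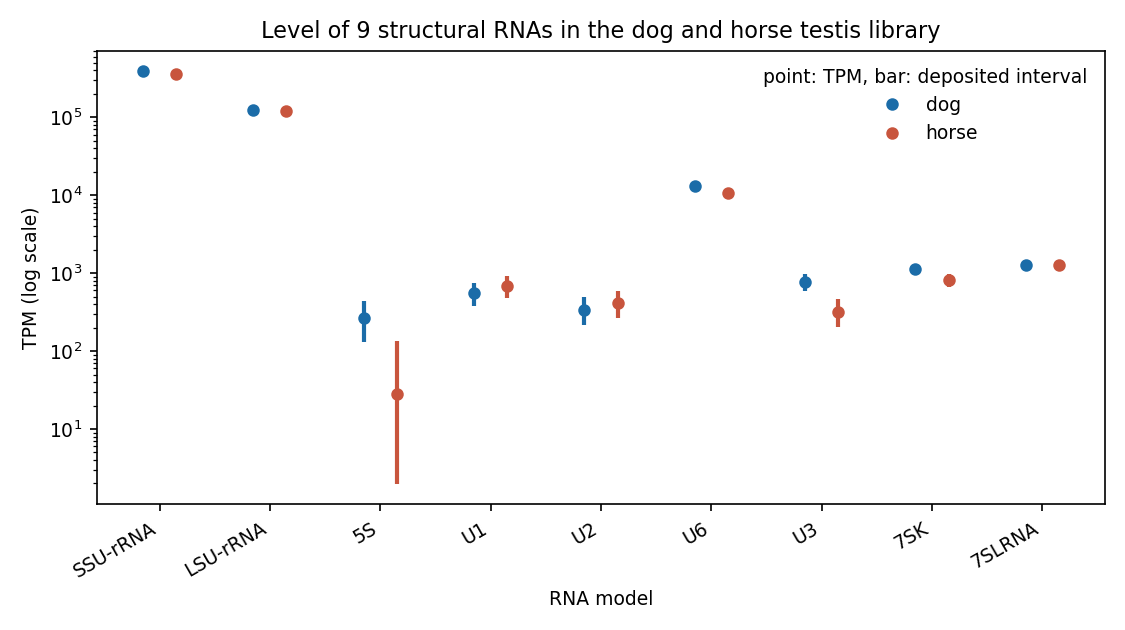
TPM (log scale) of the 9 RNA models in the dog and the horse library, with points for the value and bars for the deposited interval. SSU-rRNA stands highest in both libraries, U6 lies about an order of magnitude above 7SLRNA, and 5S in horse, at 28.4 TPM, has the widest interval.

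Among the ribosomal RNAs, the small-subunit RNA stood above the large-subunit RNA per length in both libraries. SSU-rRNA_Hsa, a model of 1869 nt, was at 388284 TPM in dog (deposited interval 382818 to 386896). Its level in horse was 357524 TPM (352201 to 355895). LSU-rRNA_Hsa, of 5035 nt, was at 123019 TPM in dog (121181 to 122655) and at 119190 TPM in horse (117327 to 118732). These were the first and second highest models of either file. In all 4 cases the TPM value lay above the upper bound of its own interval, by 0.297 to 0.458%, so the intervals of the 2 large rRNAs do not contain their own TPM values.

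Although both RNAs come from 1 precursor, their TPM values were not equal. The small-subunit RNA exceeded the large-subunit RNA by 3.16 times in dog (counting interval 3.14 to 3.17) and by 2.9996 times in horse (2.98 to 3.02). By reads, with no correction for length, the ratios were 1.16 and 1.10. The ratio in horse was 0.9504 of that in dog (0.943 to 0.958), a small difference for which no replicate spread is known. Both models, named Hsa, have the same length in both files. How well they match the rRNA of dog or of horse was not tested.

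5S rRNA, which the ribosome holds in equal number with the large-subunit RNA, was far below it in these libraries, which were labelled as mRNA. Its model of 121 nt was at 263 TPM in dog (131 to 445), from 11.001 reads, and at 28.4 TPM in horse (1.98 to 133), from 1.05 reads. The large-subunit RNA exceeded it by 467 times in dog (261 to 935) and by 4194 times in horse, where the counting interval ran from 779 to 141956. The dog and horse deposited intervals of 5S overlapped narrowly, and 5S was the lowest of the 9 RNAs in both libraries.

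Of the spliceosomal RNAs, U6 stood far above the others in both libraries. U6, the catalytic RNA of the spliceosome and the only 1 of the 3 that is made by RNA polymerase III, was at 13090 TPM in dog (11823 to 14138), from 468 reads, and at 10596 TPM in horse (9436 to 11659), from 335 reads. It ranked 10th among all models in both files. In horse the 7 models between the large-subunit rRNA and U6 were all SINEs, the short interspersed elements, and in dog 5 of 7 were SINEs and 2 were LINEs.

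U1 and U2, which recognise the 5′ splice site and the branch point, were both more than an order of magnitude lower. U1 was at 558 TPM in dog (382 to 757), from 33.9 reads, and at 688 TPM in horse (479 to 921), from 37.0 reads. U2 was at 341 TPM in dog (219 to 491), from 24.1 reads, and at 415 TPM in horse (269 to 586), from 25.9 reads. The deposited intervals of U1 and U2 overlapped within each library, and those of the same RNA overlapped between the libraries.

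In dog, U1 exceeded U2 by 1.64 times (0.942 to 2.88), and in horse by 1.66 times (0.977 to 2.85). Both counting intervals included equal levels, and the 2 ratios differed by 1.01 times (0.491 to 2.09). U6 exceeded U1 by 23.5 times in dog (16.5 to 34.3) and by 15.4 times in horse (10.95 to 22.3). U6 exceeded U2 by 38.4 times in dog (25.5 to 60.5) and by 25.6 times in horse (17.1 to 39.7). The excess of U6 over U1 was thus 1.52 times larger in dog, and that over U2 1.503 times larger. Both counting intervals, given as the horse ratio over the dog ratio, included no difference (0.404 to 1.07 and 0.376 to 1.18).

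U4 and U5, the partners of U6 in the tri-snRNP, are not among the 9 RNAs but complete the spliceosome. U4, which pairs with U6 before activation, was at 115 TPM in dog (44.3 to 233), from 6.001 reads, and was listed at 0 in horse, with an upper bound of 64.0 TPM. U5 was at 75.8 TPM in dog (17.5 to 198) and at 83.1 TPM in horse (19.2 to 222), from 3.0004 and 2.92 reads. U6 exceeded U4 by 114 times in dog (51.8 to 311). It exceeded U5 by 173 times in dog (58.8 to 841) and by 127 times in horse (42.7 to 641). U5 and U6 act together in equal number in the spliceosome, and their TPM differed by more than 2 orders of magnitude in both libraries. These are ratios within libraries labelled as mRNA and need not equal the numbers of these RNAs in the cell.

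Many copies of these genes exist, and the assignment of reads between a gene and its copies cannot be resolved here, since 1 model stands for all of them. In the RefSeq gene table of dog (assembly UU_Cfam_GSD_1.0), 1236 genes are typed as snRNA, and 975 of them have a length within 5 nt of the 107 nt of the U6 model. The corresponding number was 92 for the 165 nt of U1, 42 for the 188 nt of U2, 54 for the 145 nt of U4 and 30 for the 116 nt of U5. The table does not name which snRNA each gene is. These are numbers of dog genes by length alone, with no sequences compared, and horse genes were not analysed here. Whether the number of genes bears on the level of U6 was not tested.

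U3, filed in the authors' class snRNA although it is a nucleolar RNA of the rRNA-processing complex, differed most between the libraries among the RNAs with at least 10 reads in both. It was at 770 TPM in dog (592 to 967), from 64.0 reads, and at 315 TPM in horse (203 to 460), from 23.2 reads. These deposited intervals were apart. In dog U3 stood above U1 and U2 in TPM, and in horse below both. U1 was at 0.724 of U3 in dog (0.463 to 1.12) and at 2.19 times U3 in horse (1.27 to 3.85), a change of 3.02 times between the libraries (1.55 to 5.87). U2 was at 0.443 of U3 in dog (0.265 to 0.717) and at 1.32 times U3 in horse (0.724 to 2.42). The change for U2 was 2.98 times (1.43 to 6.18). The counting intervals of U1 over U3 in dog and of U2 over U3 in horse included equal levels.

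Relative to the rRNA that it helps to process, U3 was also lower in horse. The small-subunit rRNA exceeded U3 by 504 times in dog (395 to 655) and by 1137 times in horse (759 to 1790), a change of 2.25 times (1.40 to 3.63). The large-subunit rRNA exceeded U3 by 160 times in dog (125 to 207) and by 379 times in horse (253 to 597). These ratios are taken within a library and do not depend on how its TPM were scaled.

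7SLRNA, which is cytoplasmic, and 7SK, which is nuclear, are made by RNA polymerase III, as are 5S and U6. The levels of 7SLRNA and 7SK were close to each other in dog and farther apart in horse. 7SLRNA, whose model of 320 nt is filed under SINE/Alu because the Alu elements of primates derive from it, was at 1287 TPM in dog (1092 to 1480), from 164 reads. In horse it was at 1281 TPM (1071 to 1484), from 145 reads. Of the 9 RNAs, it was the nearest to equal TPM in the 2 libraries. The RefSeq table of dog lists 1 gene of this kind, RN7SL1, of 299 nt.

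7SK, of 331 nt, was at 1143 TPM in dog (962 to 1322), from 151 reads, and at 821 TPM in horse (662 to 989), from 96.2 reads. 7SLRNA exceeded 7SK by 1.13 times in dog (0.897 to 1.41), where the interval included equal levels, and by 1.56 times in horse (1.20 to 2.04). The change between the libraries was 1.39 times (0.987 to 1.95), and its counting interval included none. The deposited intervals of 7SK in dog and horse overlapped.

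**Figure D2:**
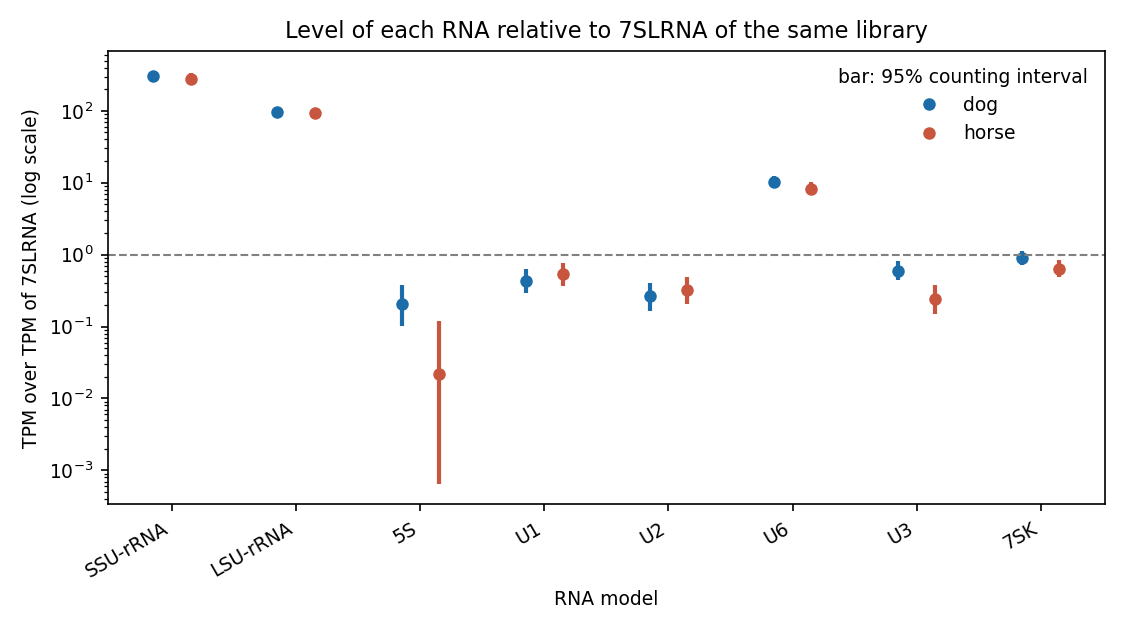
TPM of 8 RNAs divided by the TPM of 7SLRNA in the same library (log scale), with 95% counting intervals. U6 lies at 10.2 times 7SLRNA in dog and 8.27 times in horse, U1, U2 and U3 lie below 7SLRNA in both libraries, and U3 shows the widest gap between the libraries after 5S.

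Taking 7SLRNA as the reference within each library, U6 was at 10.2 times its level in dog (8.49 to 12.2) and at 8.27 times in horse (6.79 to 10.1). U3 was at 0.598 of 7SLRNA in dog (0.441 to 0.803) and at 0.245 in horse (0.151 to 0.382). U1 was at 0.433 in dog (0.290 to 0.630) and at 0.537 in horse (0.363 to 0.775). U2 was at 0.265 in dog (0.165 to 0.408) and at 0.324 in horse (0.204 to 0.494). The small-subunit rRNA was at 302 times 7SLRNA in dog (259 to 354) and 279 times in horse (237 to 331), and the large-subunit rRNA at 95.6 times (82.0 to 112) and 93.0 times (79.0 to 110). 5S was at 0.205 in dog (0.1002 to 0.376) and at 0.0222 in horse (0.000651 to 0.121). The ratio to 7SLRNA in horse was 0.410 of that in dog for U3 (0.243 to 0.694) and 0.108 for 5S (0.0145 to 0.811). Neither counting interval included equal ratios, but that of 5S rests on 1.05 reads in horse. It also depended on the reference. With 7SK or U3 as the reference, the interval for 5S included equal ratios, and with each of the other RNAs it did not.

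In both libraries U6 made up most of the 7 shorter RNAs by TPM, 75.0% in dog and 74.9% in horse. 7SLRNA followed with 7.38% in dog and 9.06% in horse, and 7SK with 6.55% and 5.81%. U3 made up 4.41% in dog and 2.22% in horse, U1 3.20% and 4.86%, and U2 1.95% and 2.93%. 5S made up 1.51% in dog and 0.201% in horse. By reads, with no correction for length, the share of U6 was 51.1% in dog and 50.6% in horse, and 7SLRNA and 7SK together came next.

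**Figure D3:**
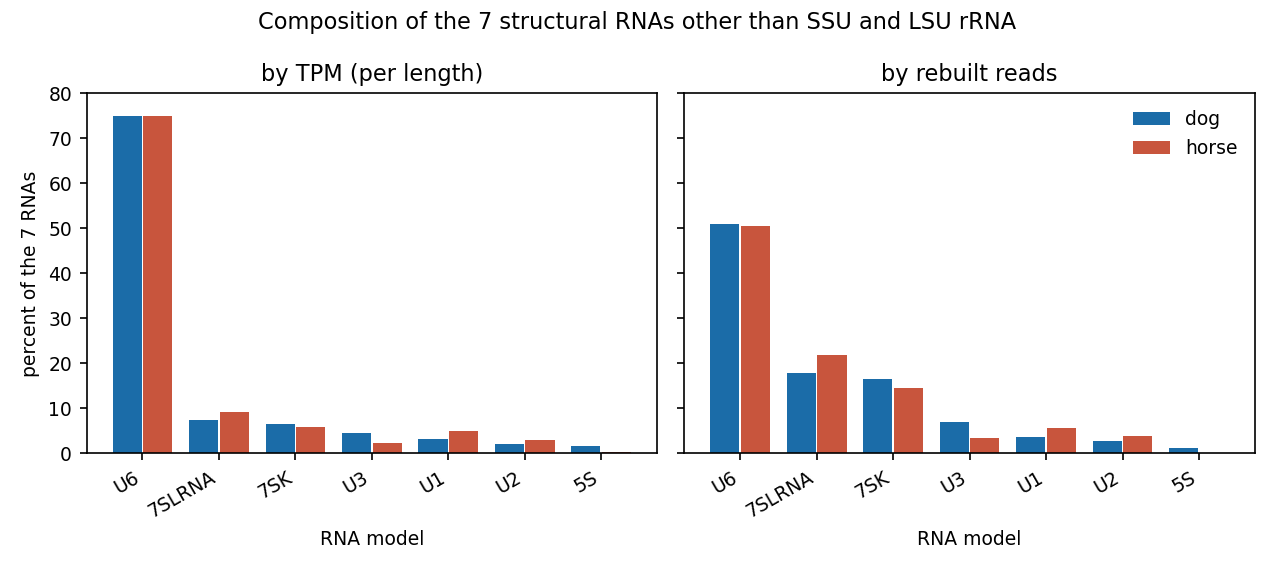
Percent of the summed TPM (left) and of the summed rebuilt reads (right) of the 7 RNAs other than the SSU and LSU rRNAs that each RNA took in dog and in horse. U6 takes 75.0 and 74.9% by TPM and 51.1 and 50.6% by reads, and U3 is the larger bar in dog while U1 and U2 are the larger bars in horse.

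In order of TPM, the dog library ran from SSU-rRNA over LSU-rRNA, U6, 7SLRNA, 7SK, U3, U1 and U2 to 5S. Each of the first 3 was apart from the next by its deposited interval, and from 7SLRNA down each RNA overlapped with its neighbour. The horse order was the same except that U3 came after U1 and U2. There 7SLRNA was apart from 7SK, and U3 from 5S, while 7SK, U1, U2 and U3 each overlapped with their neighbour.

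Comparing horse with dog, U1 and U2 had the higher TPM in horse, and the other 7 of the 9 RNAs the lower. These 7 include 7SLRNA, at a ratio of 0.995, and 5S, with 1.05 reads in horse. The share of all shared models lower in horse by any fold is not given here, so this count has no background beside it. The counting intervals of 7SLRNA, U1 and U2 included equal levels. Over the 72 shared models with at least 10 reads in both libraries, the median ratio of horse to dog was 4.82. Of these 72, 76.4% were higher in horse by 2-fold or more and 4.17% lower. Summed over all element models, shared or not, TPM was 456983 in dog and 493260 in horse. The directions of the 9 RNAs held also when TPM was rescaled to models other than rRNA or to the TPM of element models. Per read on element models, all 9 were lower in horse. That last scale multiplies every ratio by 0.526, a shift of -0.93 on the log2 scale. The scale therefore decides on which side of equal levels the values of U1 and U2 fall. Their counting intervals included equal levels both by TPM and per read on element models. Ratios between members within a library, given above, do not depend on the scale.

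By TPM, U3 was 2.45 times higher in dog (counting interval 1.501 to 4.13). 5S was 9.27 times higher in dog, with an interval from 1.39 to 343, since it had 1.05 reads in horse. 7SK was 1.39 times higher in dog (1.07 to 1.82) and U6 1.24 times higher (1.07 to 1.43). The small-subunit rRNA was 1.09 times higher in dog and the large-subunit rRNA 1.032 times higher. The ratio of horse to dog was 1.23 for U1 (0.752 to 2.03), 1.22 for U2 (0.671 to 2.21) and 0.995 for 7SLRNA (0.790 to 1.25), and these 3 intervals included equal levels.

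Per read on element models, the ratios of horse to dog were 0.215 for U3, 0.378 for 7SK, 0.426 for U6, 0.485 for the small-subunit rRNA, 0.5101 for the large-subunit rRNA, 0.524 for 7SLRNA, 0.640 for U2 and 0.649 for U1. For 5S it was 0.0568. On this scale too the counting intervals of U1 (0.396 to 1.07) and U2 (0.353 to 1.16) included equal levels.

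**Figure D4:**
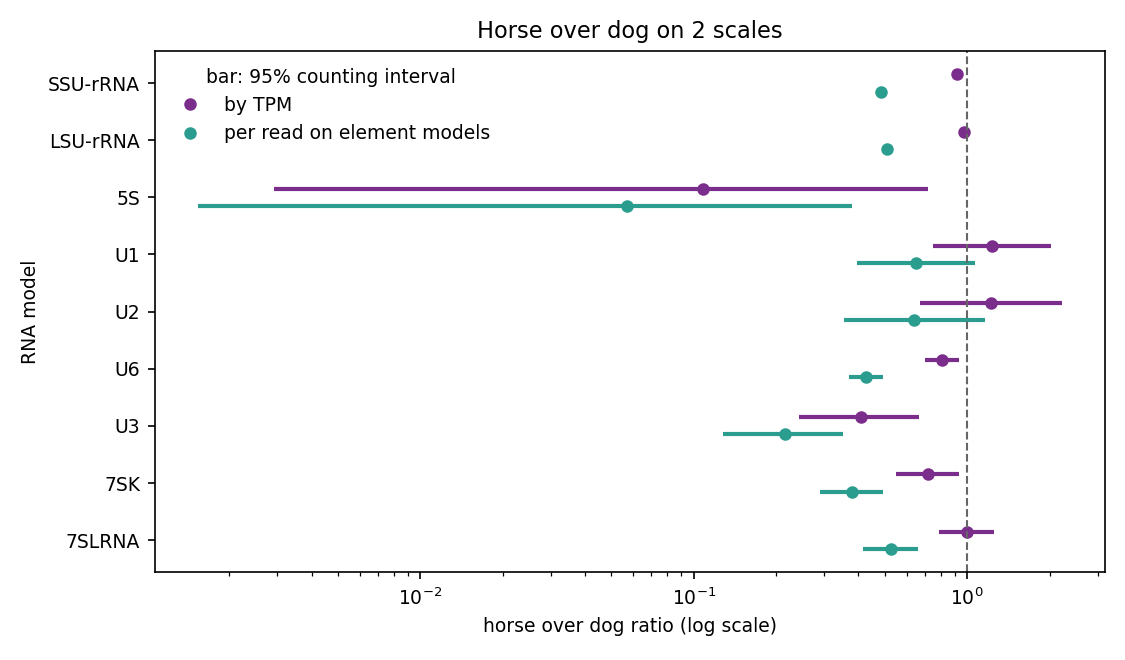
Ratio of horse to dog (log scale) for the 9 RNAs by TPM and per read on element models, with 95% counting intervals and a dashed line at equal levels. By TPM, U1, U2 and 7SLRNA span the line and U3 lies at 0.408; per element read all 9 points lie left of the line.

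Grouped by the polymerase that makes them, which is textbook knowledge and not a measurement here, the groups had horse to dog ratios of TPM between 0.806 and 0.932. The 2 RNAs of polymerase I summed to 511303 TPM in dog and 476714 TPM in horse, a ratio of horse to dog of 0.932 (0.929 to 0.936). The 4 RNAs of polymerase III, 5S, U6, 7SK and 7SLRNA, summed to 15784 and 12727 TPM, a ratio of 0.806 (0.723 to 0.899), and without U6 the ratio was 0.791 (0.667 to 0.937). The 3 RNAs of polymerase II, U1, U2 and U3, summed to 1669 and 1417 TPM, a ratio of 0.849 (0.637 to 1.13). Within this last group U3 was lower in horse, while U1 and U2 were within their counting error of equal TPM. Within the polymerase III group the ratio was 0.995 for 7SLRNA, 0.809 for U6, 0.718 for 7SK and 0.108 for 5S. The sum of that group therefore does not describe each member.

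Over all pairs of the 9 RNAs, 36 in number, the ratio within a library differed by 2-fold or more between the libraries in 13. All 8 pairs with 5S were among them, which rests on 1.05 reads in horse. Of the 28 pairs without 5S, 5 passed 2-fold, and these were 5 of the 7 pairs with U3. None of the 21 pairs among SSU-rRNA, LSU-rRNA, U1, U2, U6, 7SK and 7SLRNA passed it. Their median difference was 1.26 times and the greatest was 1.72 times, between U1 and 7SK (1.01 to 2.92). Pairs with a common member are not independent, so the 13 pairs past 2-fold reflect the values of 5S and U3 alone. The share of pairs past 2-fold among all shared models is not given here, so these counts have no background beside them.

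The other models that dog and horse share, mostly transposable elements, are set beside these differences. Of 834 models named alike, 72 had at least 10 reads in both libraries, and 8 of the 9 RNAs were among them, 5S being left out. By TPM, 76.4% of the 72 models, 55 in number, were higher in horse by 2-fold or more, and 0 of the 8 RNAs were. All 55 were among the 60 transposable element models of the 72. In the other direction 4.17% of the 72 were lower in horse by 2-fold or more, which was 1 of the 8, U3. Per read on element models these shares of the 72 became 63.9% and 13.9%, and 0 and 4 of the 8.

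The median ratio of horse to dog by TPM was 0.945 over the 8 RNAs and 4.82 over all 72 models, which include them. Over the 60 element models it was 5.14. These medians cover shared models with at least 10 reads in both libraries and do not describe element RNA as a whole. The TPM summed over all element models, shared or not, was 456983 in dog and 493260 in horse. Deposited intervals were apart with the lower value in horse for 9.72% of the 72 models, and for 4 of the 8 RNAs, namely the SSU and LSU rRNAs, U6 and U3. For the rRNAs the differences were only 1.09 and 1.032 times, and the intervals are narrow with at least 227806 reads behind each value. In either direction, intervals were apart for 86.1% of the 72, and 80.6% of the 72 passed 2-fold. The range of the 8 RNAs, from 0.408 to 1.23, held 4 of the 64 other models. Simple repeats among the 72 had ratios from 0.0642 to 0.755, inside this range or below it, so such ratios were not particular to the 8 RNAs. The nearest model below the range was the DNA transposon Charlie10 at 0.216 (0.139 to 0.326). The nearest above was the DNA transposon Zaphod2 at 1.58 (1.11 to 2.26).

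**Figure D5:**
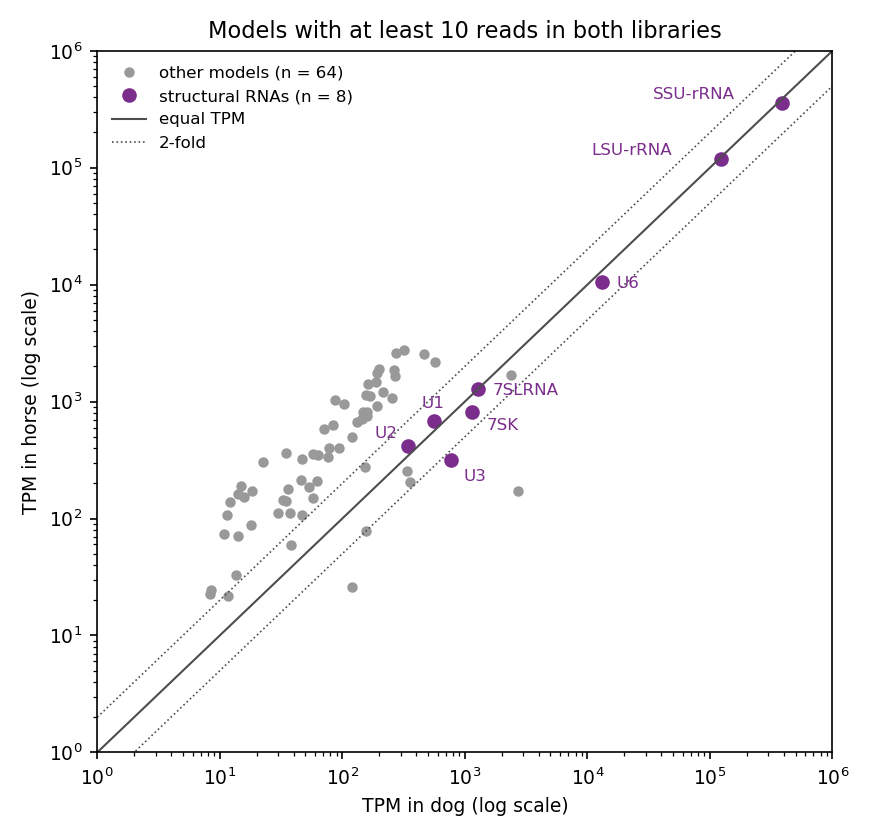
TPM in dog against TPM in horse (both log scales) for the 72 models with at least 10 reads in both libraries, with the 8 structural RNAs labelled, a solid line at equal TPM and dotted lines at 2-fold. The 8 RNAs lie along the solid line except U3 below the lower dotted line. Above the upper dotted line lie 55 of the 64 other models, all of them transposable element models.

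Other structured RNAs were barely detected in either library. Of 15 further small RNAs looked for by name, the files had models for 12, of which 3 had a read in dog and 2 in horse, and none reached 10 reads. Besides U4 and U5, dog had 1 read of U13_, and horse had 3.99 reads of U17, a nucleolar RNA, at 57.2 TPM (16.8 to 132) where dog was listed at 0. The models U7, U8, U13, U14 and the Y RNAs HY1, HY3, HY4 and HY5 were listed at 0 in both, with upper bounds from 61.9 TPM for U8 in dog to 197 TPM for U7 in horse. Transfer RNA models, 61 in dog and 57 in horse, had reads in 2 and 3 cases and 4.03 and 2.99 reads in all, with tRNA-Ser-TCA in dog highest at 3.0002 reads. These levels stand beside 13090 and 10596 TPM for U6 in the same libraries.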

How the data were processed

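Per the submitters' processing notes, Bowtie and RSEM were used, with no version given. CanFam3.1 is the only build in these notes, for horse as for dog. The authors deposited TPM with a lower and an upper bound for each model, as the column names of the files show. No interval level is stated. For models at 0 the upper bound came to a median of 2.97 reads in dog and 2.96 in horse.

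To rebuild reads, TPM was multiplied by the model length less 24 nt and divided by the value of 1 read, the unit that brings low models nearest to whole reads. Of models under 20.5 reads, 53.3% in dog and 51.4% in horse came within 0.05 of a whole number, so assignment is often fractional and no count test was run. The 24 nt come from the bat file, whose expected counts, deposited by the authors, gave 24.0 nt over 217 models. The limit set for a count of 0, 3 reads, comes to 0.000441% of all dog reads and 0.000451% of all horse reads.

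Ratios carry exact (Clopper-Pearson) 95% intervals on 2 read counts, and changes of ratios log-normal intervals on 4. A fold of 2 was the threshold for models with at least 10 reads in both libraries. All 9 RNAs are named, and others from a list of small structured RNAs or as the models nearest to the range of the 8 RNAs that reached this minimum. The RNAs, lists and thresholds were chosen with earlier results of these data known. Python 3.11.15, pandas 2.3.3, numpy 2.4.6 and scipy 1.17.1 were used.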

Additional observations from a re-analysis of the deposited data

How the results depend on the processing

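With 1 library per species, no replicate could be left out. No paired analysis was possible because each species had 1 library. The ratios of horse to dog stayed within their counting intervals with the midpoint of the deposited interval, relative to 7SLRNA, or with 1 read added to both libraries. The 7SLRNA scale multiplies every ratio by only 1.005, so this setting could hardly move the ratios. Rescaled to models other than rRNA they were 0.8595 (SSU-rRNA) and 0.904 (LSU-rRNA), and per TPM on element models, an alternative chosen after seeing the data, 0.853 and 0.898, outside their counting intervals, while the other 7 RNAs stayed inside. Per read on element models, 8 of 9 left their intervals: 0.485 (SSU-rRNA), 0.5101 (LSU-rRNA), 0.649 (U1), 0.640 (U2), 0.426 (U6), 0.215 (U3), 0.378 (7SK) and 0.524 (7SLRNA). By rebuilt reads, the ratios to 7SLRNA were 1880 (SSU-rRNA), 1618 (LSU-rRNA), 0.0671 (5S), 0.206 (U1), 0.147 (U2), 2.85 (U6) and 0.390 (U3) in dog and 1739 (SSU-rRNA), 1575 (LSU-rRNA), 0.256 (U1), 0.179 (U2) and 2.32 (U6) in horse, as follows from leaving out length. The SSU to LSU ratio became 1.16 in dog and 1.10 in horse, and the share of the 9 RNAs 84.6% and 72.2%. With 7SK as the reference, horse ratios were 435 (SSU-rRNA), 145 (LSU-rRNA), 0.837 (U1), 0.505 (U2), 12.9 (U6) and 0.383 (U3). A length minus 25 nt kept all 18 read values within their counting intervals. An effective length taken from the files, and the search for fragments of these RNAs in the small RNA libraries, which needs their sequences, were not run. At 1.5-fold, 5 models were lower in horse against 3 at 2-fold. With 10 reads in either library, 141 were higher and 15 lower in horse of 172 models, and with any read in either, 290 and 40 of 363. U1, U2, U3 and 5S are limited by depth.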
